A study of Mus musculus with 4 samples.

Results

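*Prox1*-positive granule-like excitatory neurons were examined among tdTomato-positive cells sorted from the forebrain of C57BL/6 mice at postnatal day 5. They were selected on measured transcript counts, given as unique molecular identifiers (UMIs), where 1 UMI stands for 1 captured RNA molecule. Barcodes were kept when they held between 2000 and 40000 UMIs, of which 10% or less were mitochondrial, and no fewer than 1000 genes. Of the 17623 kept cells, 418 (2.37%) met the rule, which asked for a sum of at least 3 UMIs of *Neurod1*, *Neurod2* and *Neurod6*, at least 1 UMI of *Prox1*, at most 1 UMI of *Eomes*, no UMI of *Dlx1*, *Dlx2* or *Pdgfra*, and at most 1 UMI of *Aqp4* and *Gja1* together. Values of these genes are therefore given below as a description and were not tested.

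All mice carried an inducible Cre recombinase driven by *Nestin*, which is active in neural progenitor cells, and a tdTomato reporter that marks progenitor cells exposed to tamoxifen before birth together with their progeny. The control group (NestinCreERT2/tdTomato/Chd8+/+) had both *Chd8* alleles intact, whereas the mutant group (NestinCreERT2/tdTomato/Chd8+/F) carried 1 loxP-flanked allele of *Chd8*, which encodes a chromatin remodeler. There were 2 libraries per genotype, each made with 10x Genomics 3′ chemistry from the pooled cells of several mice with an input of 5000 cells, so that the spread between libraries was measured but not that between mice. Control replicates 1 and 2 held 79328841 and 46274374 UMIs over 7221 and 6107 barcodes, and mutant replicates 1 and 2 held 78211984 and 50616343 UMIs over 7135 and 7279 barcodes.

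The replicates differed in ways that the genotype did not explain. Of the barcodes, 79.1% and 79.3% were kept in control and mutant replicate 1 against 48.7% and 45.1% in replicate 2. The median mitochondrial share of the *Prox1*-positive neurons was 1.65% and 2.22% in replicate 1 against 5.30% and 4.31% in replicate 2. Both libraries of replicate 1 had been counted with Cell Ranger 7.0.0 and both libraries of replicate 2 with 5.0.1, according to the headers of the matrices. In the *Prox1*-positive neurons, *Xist*, the RNA of the inactive X chromosome, was at 0 CPM (UMIs of a gene per 1000000 UMIs of the summed cells) in both libraries of replicate 1 and at 1771 and 2084 CPM in control and mutant replicate 2. *Rbfox1* and *Nlgn1*, which have long introns, were also lower in replicate 2. *Nlgn1* was at 967 and 784 CPM in control and mutant replicate 1 against 51.0 and 61.4 CPM in replicate 2. The study's reporting summary gives male mice for single-cell sequencing, which goes against the *Xist* levels of replicate 2. Software version, sex of the mice, cell quality and replicate number cannot be told apart, but each genotype had 1 library of each kind. For this reason values are given per library.

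*Prox1* encodes a homeodomain transcription factor that marks granule neurons of the hippocampal dentate gyrus from their precursors to the adult neuron, and it is also present in some inhibitory neurons. Granule neurons arise from progenitor cells that express *Eomes*, pass through a stage at which *Neurod1* and the calcium-binding protein gene *Calb2* are high, and later replace *Calb2* with *Calb1*. In rodents most of them are formed around and after birth. Excitatory neurons of the neocortex derive from the same class of dorsal progenitor cells but use other factors, among them *Cux2* in upper layers.

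The start of *Prox1* is shown because the gene defines the cells. RefSeq has 2 promoter windows of 300 bases for it (GRCm38.p6, minus strand), of which the one at chr1:190169466-190169765 has no match to the letters searched. The one printed here (chr1:190170778-190171077) holds the letters CAGATG, an E-box of the type bound by basic helix-loop-helix factors such as NEUROD1, between 179 and 174 bases before the start, and these are in capitals. The letters CAGATG or their reverse complement CATCTG were present in 17.2% of 32851 promoter windows, so that the match is a description of the sequence and not evidence of binding.
Prox1 promoter: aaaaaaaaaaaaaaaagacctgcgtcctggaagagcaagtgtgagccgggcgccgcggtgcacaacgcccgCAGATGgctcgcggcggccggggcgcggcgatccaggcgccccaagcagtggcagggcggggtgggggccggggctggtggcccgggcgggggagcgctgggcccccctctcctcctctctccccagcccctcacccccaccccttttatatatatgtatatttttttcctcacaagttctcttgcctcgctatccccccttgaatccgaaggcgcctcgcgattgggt

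*Prox1*-positive neurons made up similar shares of the kept cells in all 4 libraries. They numbered 143 of 5710 kept cells in control replicate 1 (2.50%, exact Clopper-Pearson 95% interval 2.11 to 2.94) and 75 of 2973 in control replicate 2 (2.52%, 1.99 to 3.15). In the mutant libraries they were 123 of 5659 (2.17%, 1.81 to 2.59) and 77 of 3281 (2.35%, 1.86 to 2.92). These intervals cover counting error only. The mean share was 2.51% ± 0.013 in control and 2.26% ± 0.12 in mutant libraries (SD, n = 2 each), and the difference of -0.25 percentage points had a two-sided exact permutation p = 0.333, the smallest that 2 libraries against 2 allow. Both mutant shares lay below both control shares, by 0.33 points within replicate 1 and 0.18 points within replicate 2, differences inside the counting intervals. With a mitochondrial limit of 5% the mean difference was 0.17 points in the other direction. That limit left 1069 kept cells in control replicate 2, of which 25 were *Prox1*-positive neurons.

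Set against all *Neurod*-positive excitatory neurons (the same rule without *Prox1*), the share varied widely between libraries, with the 2 control libraries furthest apart. It was 58.8% (143 of 243 cells, 95% interval 52.4 to 65.1) and 90.4% (75 of 83, 81.9 to 95.7) in the control libraries and 70.7% (123 of 174, 63.3 to 77.3) and 80.2% (77 of 96, 70.8 to 87.6) in the mutant libraries. The mutant minus control difference was 11.8 points within replicate 1 and -10.2 points within replicate 2, and 0.84 points over the group means (two-sided exact permutation p = 1). The *Prox1*-negative excitatory neurons that remained numbered 100, 8, 51 and 19 cells in control replicates 1 and 2 and mutant replicates 1 and 2, so that comparisons with them rest mostly on replicate 1.

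**Figure D1:**
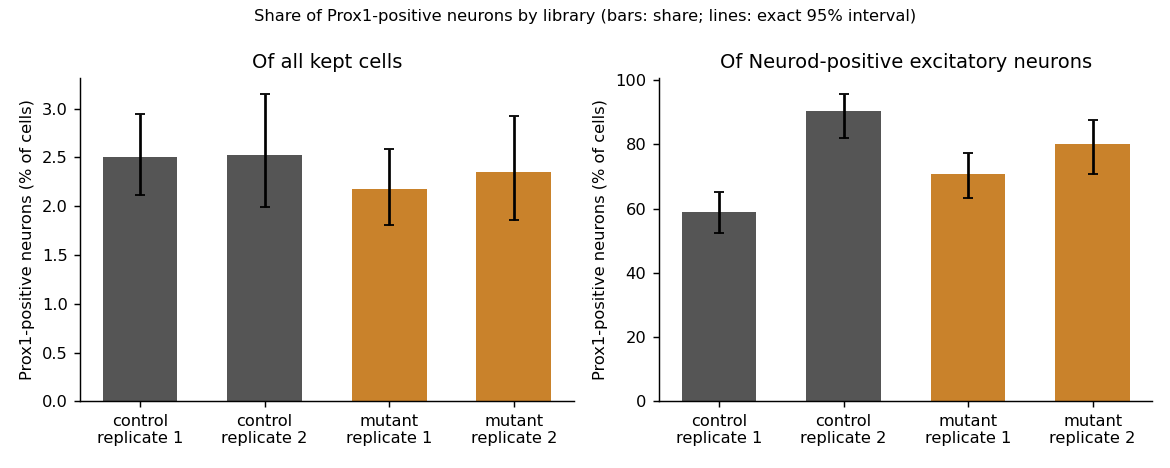
Share of *Prox1*-positive neurons (y axis, percent of cells) in each of the 4 libraries (x axis), of all kept cells on the left and of *Neurod*-positive excitatory neurons on the right. Bars give the share, lines the exact 95% interval. The left shares lie between 2.17% and 2.52%, whereas the right shares range from 58.8% to 90.4% with both extremes in control libraries.

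The cells were of moderate depth and mostly well above the threshold on *Prox1*. They held a median of 10470.5 UMIs (range 2098 to 31234) and 3748.5 genes, and no barcode of theirs occurred in more than 1 library. *Prox1* itself had a median of 8 UMIs per cell, and its level over the summed cells was 841, 1474, 870 and 1006 CPM in control replicates 1 and 2 and mutant replicates 1 and 2. Just inside the threshold, 31 cells had 1 *Prox1* UMI and 29 had 2, while 358 had 3 or more. Just outside it, 178 cells had none. *Neurod1*, also part of the rule, was at 1369, 1643, 1543 and 1655 CPM. At the other limits, 93 cells had 1 *Eomes* UMI and 49 otherwise fitting cells had 2, 16 had a *Neurod* sum of 3 and 23 otherwise fitting cells had a sum of 2, and 26 were left out for a single UMI of *Dlx1* or *Dlx2*.

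A single *Prox1* UMI can come from RNA free in the cell suspension. Microglia, which should lack *Prox1*, had at least 1 UMI in 28.3% of 367 cells at a median of 11151 UMIs, and in 15.1% of 325 cells thinned to 5000 UMIs, although their summed level was only 32.8 to 50.8 CPM. *Prox1* was also present outside these neurons, with 84.7% of 404 *Eomes*-positive precursors and 35.9% of 3133 *Dlx*-positive inhibitory cells holding at least 1 UMI.

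Marker genes placed the cells at an immature stage. The lists used for this were chosen with earlier results of these data known. Of the 13 genes of a late neuroblast list without rule genes, each was detected, and their summed level was 9958 and 12136 CPM in the control libraries and 10464 and 14846 CPM in the mutant libraries. The most abundant, *Sox11*, a transcription factor of newborn neurons, reached 3511 CPM over all 418 cells. *Calb2* was at 1083, 1110, 1133 and 1181 CPM in the 4 libraries and had a UMI in 89.7% of cells. The 19 genes of the dentate granule list without rule genes summed to 1483 and 512 CPM in the control and 1192 and 517 CPM in the mutant libraries, with *Sema5a* (590 CPM over all cells) and *Rfx3* (287 CPM) the most abundant. Other members of this list, named here because they were low, had few or no UMIs. *Tdo2* was not detected in 418 cells (an approximate upper limit of 3 cells, or 0.718%, and not the exact interval used for shares). *Calb1* had 1 UMI in all, and *Dsp*, *C1ql2*, *Plk5* and *Lct* stayed below 6 CPM in every library. The granule-like name therefore rests on *Prox1*, which is part of the rule, with hippocampal genes and some genes of the dentate granule list. It does not rest on *Calb1*, *Tdo2* or the others that were low. Of the hippocampal genes, *Zbtb20* was also detected in most cells of the other classes examined. The late neuroblast list was about as high in *Eomes*-positive precursors, at 9492 and 11453 CPM in control and 9269 and 15013 CPM in mutant libraries.

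Markers of most other cell types were low. Over the 4 libraries, the inhibitory neuron list summed to 22.2 to 77.2 CPM, the microglia list to 5.51 to 18.6 CPM, the red blood cell list to 6.69 to 18.3 CPM and the Cajal-Retzius list to 1.49 to 22.3 CPM, with *Trp73*, *Ndnf* and *Cacna2d2* at 0. The oligodendrocyte lineage list summed to 62.5 to 137 CPM. The astrocyte and neural stem cell list was higher, at 729, 1248, 481 and 1394 CPM, and its most abundant gene was the glutamate transporter gene *Slc1a2* at 282 CPM. Its sum in precursors was 1285, 1614, 1315 and 1432 CPM, and the part of astrocytes or of their free RNA in these values was not tested. The endothelial and mural list summed to 5.10, 259, 40.9 and 35.3 CPM, which came from a few cells that are described with the genotype comparison.

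The cells differed among themselves along the number of *Prox1* UMIs. *Gal*, which encodes the neuropeptide galanin, was at 8.14 CPM in cells with 1 *Prox1* UMI, at 44.1 CPM with 3 to 5, and at 107 CPM with 11 or more. From 6 to 10 UMIs to 11 or more it went from 127 to 95.8 CPM and from 118 to 83.0 CPM in control and mutant replicate 1, but from 57.7 to 113 CPM and from 66.3 to 177 CPM in replicate 2. *Glis3*, a zinc finger factor, was at 20.3 CPM and 108 CPM in the same bins of 1 and of 11 or more, and *Sema5a*, a semaphorin, at 297 and 798 CPM. Opposite to these, *Lhx2* was at 631 CPM with 1 *Prox1* UMI and 256 CPM with 11 or more, although the only cell with 1 UMI in control replicate 2 held none. *Meis2* was at 374 and 70.6 CPM in these bins, but the first value came largely from the 11 cells of mutant replicate 1 at 794 CPM, the others being at 218 CPM (control replicate 1), 94.4 CPM (control replicate 2, 1 cell) and 59.6 CPM (mutant replicate 2). In cells with 11 or more UMIs *Meis2* was lower in each library, at 143, 12.6, 50.1 and 24.4 CPM. *Tac2*, a tachykinin gene that was also high in precursors, was highest at 773 CPM in cells with 2 UMIs and was at 51.8 CPM in the richest. Its highest bin was that of 2 UMIs in the mutant libraries (1574 and 777 CPM) but that of 3 to 5 UMIs in the control libraries (459 and 807 CPM). *Calb2* stayed between 744 and 1333 CPM throughout. Cells with few *Prox1* UMIs were also shallower, with a median of 6742 UMIs at 1 *Prox1* UMI and 12584 UMIs at 11 or more. When the 362 cells that were deep enough were thinned to 5000 UMIs, the same order was present for *Sema5a* (225 CPM in 55 cells with at most 1 *Prox1* UMI, 792 CPM in 101 cells with 7 or more) and for *Meis2* (207 and 27.7 CPM, with 425 CPM in mutant replicate 1 the highest library of the first bin). Thinned *Gal* was at 18.2 and 105 CPM in these bins, but in control replicate 1 it was highest with 2 or 3 *Prox1* UMIs (148 CPM) and at 66.7 CPM with 7 or more. The bins were cut from *Prox1* and pool libraries, so they are a description with no test.

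**Figure D2:**
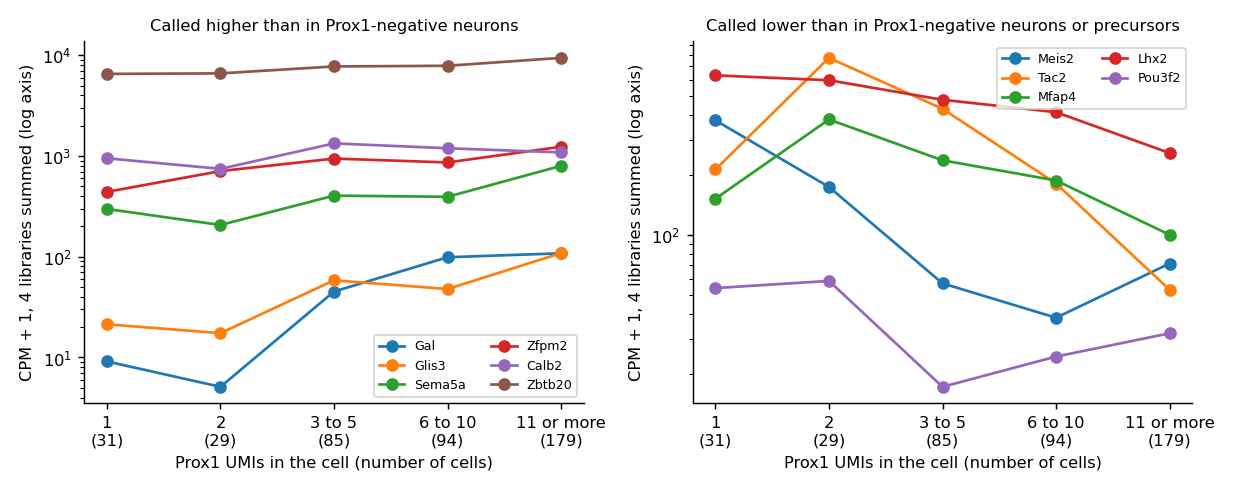
Level of 11 genes (y axis, CPM + 1 of summed UMIs on a log axis) in *Prox1*-positive neurons grouped by *Prox1* UMIs per cell (x axis, number of cells in brackets), with the 4 libraries summed. Lines join the bins of a gene, and *Gal* (in replicate 1 highest at 6 to 10 UMIs) and *Sema5a* are highest at the right while *Meis2* and *Lhx2* are highest at the left and *Tac2* at 2 UMIs.

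Cells with 1 *Eomes* UMI differed in some genes from those with none, which is a description since *Eomes* is part of the rule. *Tac2* was at 391 CPM in the 93 cells with an *Eomes* UMI against 118 CPM in the 325 without, *Mfap4*, an extracellular matrix gene, at 282 against 115 CPM, and *Nell1*, a secreted protein gene, at 54.7 against 196 CPM. Of the cell division genes, *Mki67* was at 26.5 against 13.0 CPM, higher with an *Eomes* UMI in every library. This rests on few counts, as mutant replicate 1 held only 2 *Mki67* UMIs. In control replicates 1 and 2, 2 cells each held 19 of 24 and 28 of 36 *Mki67* UMIs. *Top2a* was at 8.21 against 14.2 CPM and lower in 3 of the 4 libraries. These genes were chosen after their values were seen.

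To identify what distinguished these neurons from other young excitatory neurons, UMIs were summed per class and library and compared with *Prox1*-negative excitatory neurons, with the library as a block. Because *Prox1* drew the line between the classes, the adjusted p-values say how regularly other genes differed over the 4 libraries and not that the classes are distinct types. Neurons with *Prox1* had higher levels of 10 of 13 late neuroblast genes, *Gal* among them, and of 5 of 10 hippocampal transcription factors. They had lower levels of 11 of 12 upper and 6 of 11 deep cortical layer genes and of 5 of 8 CA pyramidal genes. The lists were chosen with earlier results of these data known. Counts and medians of lists, here and below, therefore describe the classes and are not independent support for their identity. Leaving out the rule genes, 9475 genes were tested with edgeR's quasi-likelihood test, 463 (4.89%) were higher and 670 (7.07%) were lower in *Prox1*-positive neurons at an adjusted p under 0.05. Without the library block 194 genes passed, with DESeq2 625, and with the replicate 1 libraries alone 1506.

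Among late neuroblast genes, 10 of 13 were higher, none was lower, and the median log2 change of the list was 0.99 against 0.012 over all tested genes. *Calb2* was at 284, 399, 552 and 706 CPM in the *Prox1*-negative neurons of the control (first pair) and mutant libraries, each below its level in the *Prox1*-positive neurons of the same library (2.49-fold over all, log2 change 1.32 ± 0.15 SE, adjusted p = 1.94e-06). *Mfap4* was 3.98-fold higher and *Igfbpl1*, a gene of newborn neurons, 1.31-fold. *Dcx*, the microtubule-binding protein of migrating neurons, did not pass (log2 change -0.11 ± 0.11, adjusted p = 0.659), nor did *Neurod4* or *Cd24a*.

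*Gal* had the largest increase among the genes named for this comparison. It was at 86.8, 90.9, 70.6 and 96.7 CPM in *Prox1*-positive neurons and at 0.881, 0, 1.95 and 0 CPM in *Prox1*-negative neurons. The latter came from 2 UMIs in all, and the ratio of the pooled levels was 79.9 with a counting interval of 22 to 663. All 4 libraries were far apart between the classes, and 23.2% of *Prox1*-positive neurons held a *Gal* UMI against none of 367 microglia.

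Of the 10 hippocampal transcription factors tested, 5 were higher, none was lower, and the median log2 change was 0.52. *Zbtb20*, a zinc finger repressor required for hippocampal identity, was the most abundant at 8813, 7305, 8644 and 8820 CPM against 3006, 2383, 3996 and 4151 CPM in *Prox1*-negative neurons (log2 change 1.36 ± 0.11, adjusted p = 1.15e-08), with no overlap between the classes. A *Zbtb20* UMI was also present in 97.2% of *Prox1*-negative neurons, 99.8% of precursors, 98.7% of *Dlx*-positive cells and 66.5% of microglia. Its presence therefore does not mark these neurons, and only its level differed between the 2 classes compared. *Nfix* was 1.86-fold, *Emx2* 2.74-fold and *Lef1*, a nuclear effector of Wnt signalling needed to form the dentate gyrus, 3.12-fold higher. *Lhx2* and *Bcl11b* did not pass.

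The dentate granule list held 19 genes besides the rule genes, of which 6 had enough counts to be tested. *Glis3*, *Stxbp6*, *Sema5a* and *Rfx3* were higher and the kinase gene *Camk4* was lower. A gene could pass the count filter through the class where it was high, as *Glis3* largely did. The counts of this list are therefore a description and not independent support for the granule-like name. *Glis3* was at 117, 17.9, 103 and 6.53 CPM against 15.9, 0, 1.95 and 0 CPM, so that the classes differed 10.2-fold but replicate 2 gave few counts. A *Glis3* UMI was present in 28.5% of *Prox1*-positive neurons and 5.62% of *Prox1*-negative neurons, beside 21.0% of microglia. *Sema5a* was at 782, 324, 650 and 342 CPM against 206, 62.4, 209 and 64.7 CPM (log2 change 1.90 ± 0.16, adjusted p = 1.13e-08).

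Most neocortical genes tested were lower. Of 12 tested upper layer genes, 11 were lower and none was higher, with a median log2 change of -3.68. *Mef2c*, a transcription factor of maturing cortical neurons, was at 58.0, 51.0, 40.9 and 58.8 CPM in *Prox1*-positive and 1592, 250, 923 and 359 CPM in *Prox1*-negative neurons (log2 change -3.90 ± 0.30, adjusted p = 2.76e-09), with no overlap between the classes. *Cux2*, *Pou3f2*, *Unc5d* and *Mef2c* were 29.1-fold, 12.1-fold, 13.6-fold and 14.9-fold lower, although *Cux2* was at 0 among the 8 *Prox1*-negative cells of control replicate 2. Among deep layer genes, 6 of 11 were lower, including *Foxp2* and *Etv1*, while *Fezf2* was higher (31.3, 53.7, 44.6 and 50.9 CPM against 9.69, 25.0, 15.6 and 17.6 CPM) and *Tbr1* did not pass (adjusted p = 0.67).

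The *Prox1*-negative neurons were thus rich in cortical genes and in others that were almost absent from the *Prox1*-positive neurons. *Cck*, a neuropeptide gene, was at 2.55, 0, 0.743 and 0 CPM against 232, 399, 78.1 and 29.4 CPM. *Pou3f1* was 82.6-fold and *Syt4*, a synaptotagmin, 75.7-fold lower. *Meis2*, a homeodomain factor, was at 124, 17.9, 102 and 32.7 CPM against 1997, 923, 2052 and 853 CPM (log2 change -4.43 ± 0.17, adjusted p = 2.01e-13). *Epha5* and *Robo2*, receptors for axon guidance cues, and the long noncoding RNA *Meg3* were between 17.7-fold and 21.0-fold lower. Of 8 tested genes of the CA pyramidal list, 5 were lower, among them *Mpped1* and *Nectin3*, and *Grik4*, a kainate receptor subunit, was higher.

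**Figure D3:**
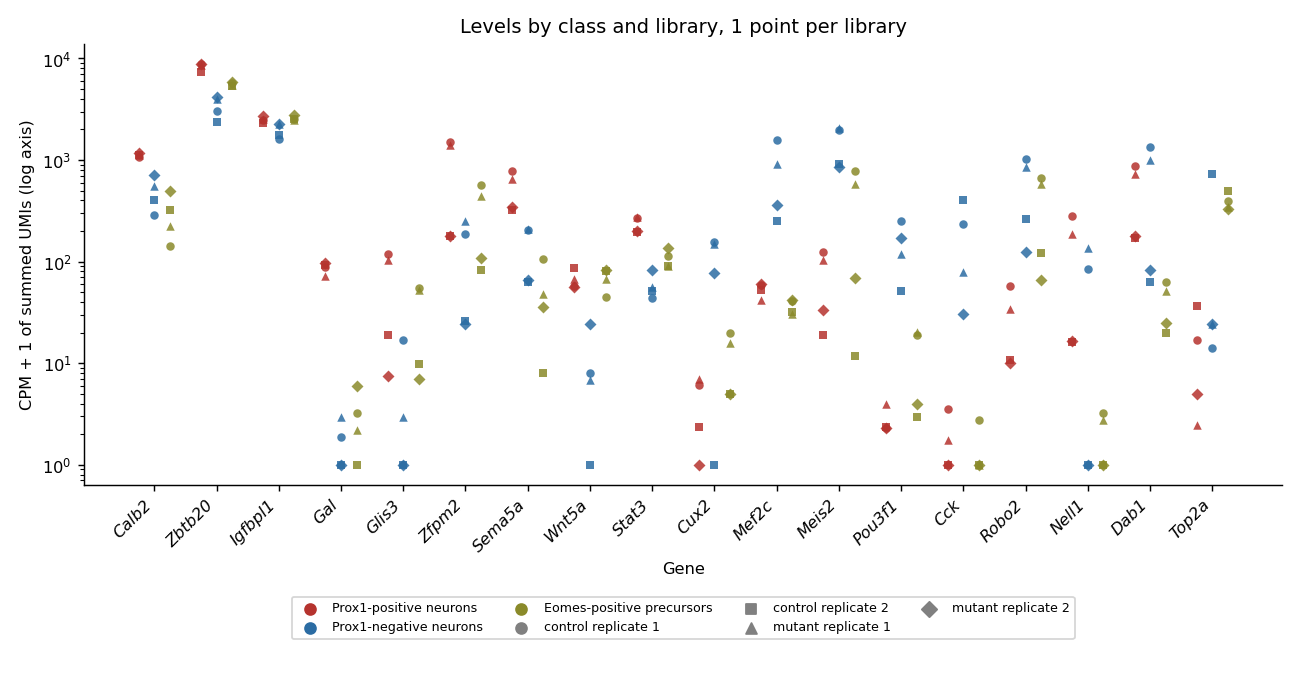
Levels of 18 genes (x axis) as CPM + 1 of summed UMIs (y axis, log axis), with 1 point per library, in *Prox1*-positive neurons, *Prox1*-negative excitatory neurons and *Eomes*-positive precursors. *Calb2*, *Zbtb20* and *Gal* are highest in *Prox1*-positive neurons in every library, whereas *Mef2c*, *Meis2* and *Cck* are highest in *Prox1*-negative neurons in every library.

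Receptor, guidance and maturation genes were divided. Of 13 tested mossy fibre guidance genes, 4 were higher (*Nrp2*, *Nectin1*, *Ephb2* and *Dcc*) and 5 lower (*Sema6a*, *Kirrel3*, *Efnb2*, *Robo1* and *Robo2*). *Nrp2*, a semaphorin receptor, was at 189, 216, 193 and 186 CPM against 118, 37.4, 37.1 and 106 CPM (adjusted p = 0.000571). Of 13 glutamatergic transmission genes, *Gria1* was higher (2.40-fold) and 6 were lower, including *Grin2a* and *Grin2b*. Of 14 neuronal maturation genes, *Rbfox3* was higher (1.82-fold) and 6 were lower, among them *Gap43* (5.01-fold), a growth cone protein gene, and *Stmn2* (1.88-fold). Of 12 synaptic adhesion genes, *Lrrtm1* was higher and *Nlgn1*, *Adgrl2* and *Adgrl3* were lower. In the Wnt signalling list, *Ctnnb1* and *Wnt5a* were higher and *Wnt7b* and *Sfrp1* lower among 8 tested, and in the immediate early list *Ier2* and *Btg2* were higher among 7. *Wnt5a*, a secreted ligand, was at 56.8, 85.4, 66.1 and 54.9 CPM against 7.04, 0, 5.86 and 23.5 CPM.

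Few genes in the lists of other cells were called. *Slc1a2* was 3.32-fold higher, and *Reln* of the Cajal-Retzius list, *Adarb2* of the inhibitory list and *Top2a* of the cell division list were lower. *Top2a* was highest in the 8 *Prox1*-negative cells of control replicate 2, where 58 of its 59 UMIs lay in 1 cell. No gene of the oligodendrocyte lineage list (5 tested) or of the endothelial and mural list (3 tested) was called, and none of the microglia or red blood cell lists had enough counts to be tested.

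Further genes with large changes among the named ones were those of a receptor, *Adra2c* (9.38-fold, adrenergic receptor), of synaptic proteins, *Syt2* (10.4-fold) and *Synpr* (8.04-fold), of the cytokine *Kitl* (6.20-fold), of the cofactor *Zfpm2* (6.79-fold) and of the phosphatase *Dusp14* (6.72-fold). *Zfpm2* was at 1521 and 1420 CPM in the 2 libraries of replicate 1 and at 179 and 178 CPM in those of replicate 2, against 187 and 250, and 25.0 and 23.5 CPM, so that the ratio was alike although the levels differed with the replicate. *Stat3*, chosen after its values were seen, was 4.69-fold higher. *Prox1os*, an RNA transcribed from the opposite strand at chr1:190170296-190217276 (GRCm38, plus strand), was 31.5-fold higher, but it overlaps *Prox1* (chr1:190118035-190170714, minus strand), on which the cells were chosen, and its counts are not independent of the rule.

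The genes higher in *Prox1*-positive neurons included 2 whose proteins bind retinoic acid. *Crabp1*, a carrier of retinoic acid, was at 26.8, 57.8, 34.9 and 60.1 CPM against 0.881, 0, 1.95 and 0 CPM, which were 2 UMIs, and the ratio was 38.1 with a counting interval of 10.4 to 317. *Rarb*, a retinoic acid receptor, was at 84.8 and 69.1 CPM in replicate 1 against 6.16 and 3.90 CPM, but at 5.51 and 3.92 CPM in replicate 2 against 12.5 and 5.88 CPM, so that the classes were apart only in replicate 1 (log2 change over all 3.45 ± 0.44, adjusted p = 6.24e-06). *Crabp2*, *Rara*, *Rxra* and *Rxrg* had too few counts to be tested. *Crabp1* and *Rarb* and this grouping were chosen after the values were seen.

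A promoter of *Rarb* is shown because that gene is a known target of its own receptor family. The RefSeq window (GRCm38.p6, chr14:16575427-16575726, minus strand) holds between 52 and 37 bases before the start a direct repeat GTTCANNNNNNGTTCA, the arrangement bound by retinoic acid receptors, which is in capitals. On either strand, the repeat or its reverse complement TGAACNNNNNNTGAAC was present in 25 of 32851 promoter windows (0.0761%). No binding was measured.
Rarb promoter: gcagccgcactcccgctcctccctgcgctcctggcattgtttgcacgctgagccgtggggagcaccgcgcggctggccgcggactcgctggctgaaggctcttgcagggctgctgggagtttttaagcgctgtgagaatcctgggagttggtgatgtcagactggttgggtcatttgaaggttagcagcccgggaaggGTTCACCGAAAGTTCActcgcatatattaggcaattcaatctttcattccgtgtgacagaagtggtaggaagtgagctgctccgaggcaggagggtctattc

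To place the cells along the lineage, they were compared with *Eomes*-positive precursors, of which there were 138, 81, 109 and 76 cells. Because *Eomes* drew this line, genes that go with *Eomes* differ partly through the rule. The adjusted p-values say how regularly other genes differed over the 4 libraries and not that the classes are distinct types. *Prox1*-positive neurons had higher levels of neuronal genes and lower levels of cell division genes, whose sum was 194, 295, 102 and 150 CPM against 1577, 1946, 1648 and 1530 CPM in precursors. Leaving out the rule genes, 10617 genes were tested, 2042 (19.2%) were higher and 2074 (19.5%) were lower. As 4116 of the 10617 genes passed, the sizes are more informative here than single calls. Without the library block 1180 genes passed, and with DESeq2 2466.

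All 10 cell division genes were lower, with a median log2 change of -3.79 against -0.0064 over all tested genes. *Top2a*, a topoisomerase of dividing cells, was at 15.9, 35.8, 1.49 and 3.92 CPM against 398, 500, 346 and 326 CPM (log2 change -4.88 ± 0.24, adjusted p = 7.11e-11). The named genes with the largest falls were replication-dependent histones (*Hist1h3c*, *Hist2h2ac*, *Hist1h1b*, *Hist1h2ap* and *Hist1h1d*) and genes of replication and mitosis such as *Neil3*, *Pclaf*, *Aurkb* and *Ccna2*. In the astrocyte and neural stem cell list, 5 of 9 tested genes were lower and none was higher.

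Neuronal maturation genes were higher in 10 of 12 tested cases, and glutamatergic transmission genes in 9 of 13. *Stmn2*, a regulator of microtubules, was at 602, 1026, 751 and 995 CPM against 170, 182, 117 and 272 CPM (4.73-fold, adjusted p = 1.47e-10). *Gria2*, an AMPA receptor subunit, was 2.90-fold and *Camk2b* 6.49-fold higher, whereas *Slc17a6*, a vesicular glutamate transporter, was 1.89-fold lower. Of 12 synaptic adhesion genes, 7 were higher and *Adgrl2* was lower, and of 13 mossy fibre guidance genes 6 were higher and 4 lower. *Nell1* had the largest increase among the named genes. It was at 277, 15.1, 187 and 15.7 CPM against 2.20, 0, 1.77 and 0 CPM (adjusted p = 1.92e-12). *Gal*, the guidance cue *Slit3*, the growth factor *Nrg3*, the calsyntenin *Clstn2* and *Dab1*, the adaptor of reelin signalling, were also higher, by 41.5-fold, 23.3-fold, 22.6-fold, 16.1-fold and 12.9-fold.

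Late neuroblast genes were divided between the classes. *Calb2*, *Nhlh2*, *Dcx*, *Gal* and *Cd24a* were higher and *Tac2*, *Neurod4* and *Mfap4* lower, and the median log2 change of the list was 0.13. *Calb2* was 4.36-fold higher (143, 319, 222 and 495 CPM in precursors), and *Tac2* was 3.94-fold lower (725, 825, 602 and 894 CPM in precursors). Among hippocampal factors, *Zbtb20*, *Bcl11b*, *Bhlhe22* and *Tcf4* were higher and *Lef1*, *Emx2* and *Lhx2* lower. Of 6 tested dentate granule genes, 5 were higher and none lower, with the same limit of the count filter. There were 3 higher and 6 lower of 10 upper layer genes, 2 and 5 of 10 deep layer genes and 2 and 3 of 6 CA pyramidal genes. Of 9 Wnt signalling genes 4 were lower and none higher, and of 7 immediate early genes 4 were higher and none lower. Among 4 inhibitory neuron genes, 2 were higher and 2 lower, of 6 oligodendrocyte lineage genes 2 were higher, *Mbp* among them (at 13.4 to 30.5 CPM), the only tested endothelial gene, *Cldn5*, was higher through the few cells described below, and *Reln* and *Hbb-bs* did not pass.

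**Figure D4:**
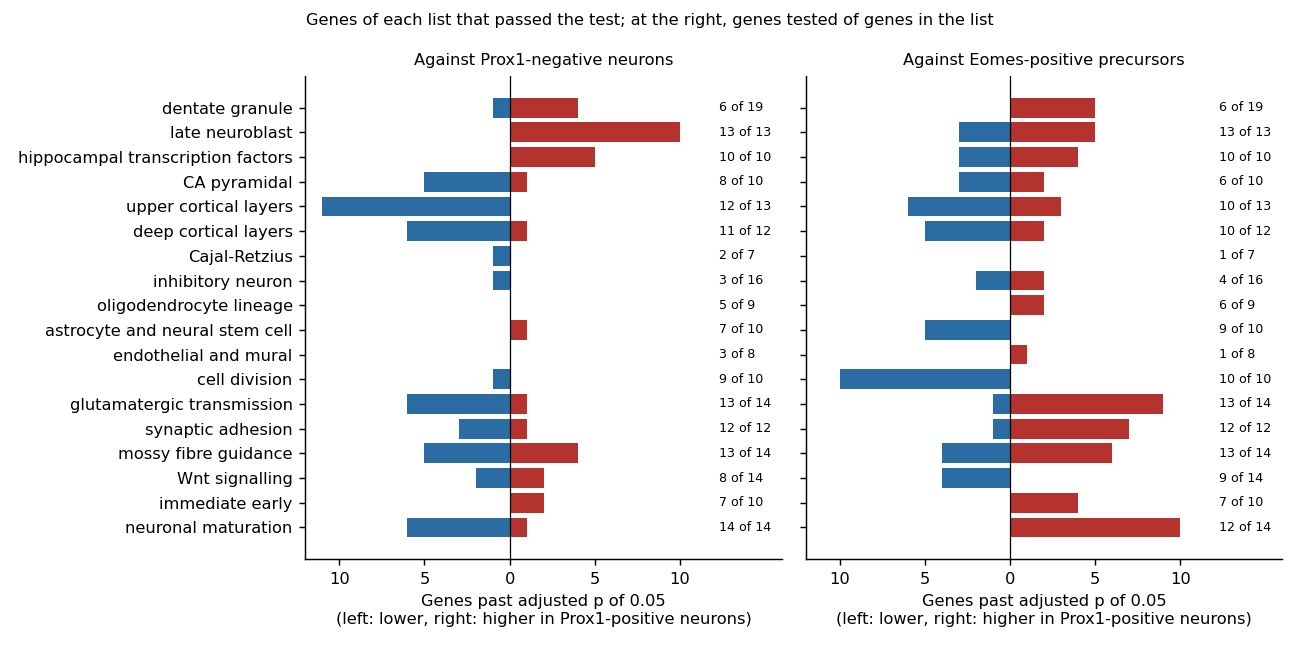
Number of genes of each list (y axis) that passed an adjusted p of 0.05 (x axis, to the left lower and to the right higher in *Prox1*-positive neurons) against *Prox1*-negative neurons and against *Eomes*-positive precursors. Labels at the right give the genes tested of those in the list, the microglia and red blood cell lists are left out, and the upper layer list has 11 lower genes in the left panel and the cell division list 10 lower genes in the right panel.

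Next, mutant and control *Prox1*-positive neurons were compared to ask whether loss of 1 *Chd8* allele changed their transcripts. *Chd8* was at 69.5 and 89.5 CPM in the control and 96.6 and 125 CPM in the mutant libraries, higher in the mutant within each replicate, and did not pass the test (log2 change 0.49 ± 0.31, adjusted p = 1). As the positions of the counted tags along *Chd8* were not analysed here, and 3′ tags need not fall in the deleted exons, this level does not check the genotype. With edgeR's quasi-likelihood test and no block, 0 of 9474 genes (0.0%) passed an adjusted p of 0.05, and DESeq2 also called 0. No listed gene, *Nlgn1* among them, passed in this fit. An unadjusted p under 0.05 was reached by 32 genes without a block and by 457 with the replicate number as a block. Without the block, differences between replicates count as error, so the 0 calls do not show that the genotype had no effect.

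With the replicate number as a block, 6 of 9474 genes (0.0633%) passed, and for most of them a few cells held many of the UMIs. *Cldn5*, a tight junction gene of endothelial cells, was higher in the mutant, at 0.638 and 0 CPM in control and 31.2 and 13.1 CPM in mutant libraries (adjusted p = 0.0155). These were 1 UMI in the controls and 52 in the mutants, a ratio of 56.5 with a counting interval of 9.70 to 2274, and 41 of the 42 UMIs of mutant replicate 1 and all 10 of mutant replicate 2 came from 1 cell each. Without cells that held 2 or more UMIs of *Cldn5*, *Flt1*, *Pecam1* and *Ly6c1* together, a step chosen after the values were seen, 6 genes passed, *Meg3*, *Hist1h1b* and *Hmgb2* among them, while *Cenpf* (log2 change -1.16 against -2.73 with these cells, adjusted p = 0.824) and *Top2a* (-2.56 against -3.23, adjusted p = 0.0633) did not.

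*Cenpf*, *Top2a*, *Hist1h1b* and *Hmgb2*, all genes of dividing cells, and *Meg3* were lower in the mutant. *Hmgb2*, the most widely detected of them, was at 244 and 211 CPM in control and 117 and 92.8 CPM in mutant libraries. Its log2 change was -1.10 ± 0.17 (adjusted p = 0.0303). In the control libraries, the 2 cells with the most *Hmgb2* UMIs held 118 of 382 and 63 of 153. In the mutant libraries such cells held 19 of 157 and 17 of 71. *Cenpf* was at 25.5 and 129 CPM against 8.17 and 10.5 CPM, and 68 of its 94 UMIs in control replicate 2 were in 1 cell. *Meg3* was at 91.2 and 77.1 CPM against 34.2 and 19.6 CPM (adjusted p = 0.0247), and 66 of its 143 UMIs in control replicate 1 were in 1 cell. Cells with a UMI of *Mki67* or *Top2a* were 11 of 143 and 15 of 75 in control and 4 of 123 and 9 of 77 in mutant libraries (7.69%, 20%, 3.25% and 11.7%), the share being lower in the mutant within each replicate but overlapping over all 4 libraries (two-sided exact permutation p = 0.667). Only 3 and 4 control cells and 0 and 2 mutant cells held 2 or more such UMIs, so most were not shown to divide. All cells with a UMI of either gene were then left out, a step also chosen after the values were seen. With the block, 20 genes then passed, 12 higher and 8 lower in the mutant. *Meg3* was among them (log2 change -1.68, adjusted p = 4.71e-08), whereas *Hmgb2* then differed by -0.27 (adjusted p = 1).

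**Figure D5:**
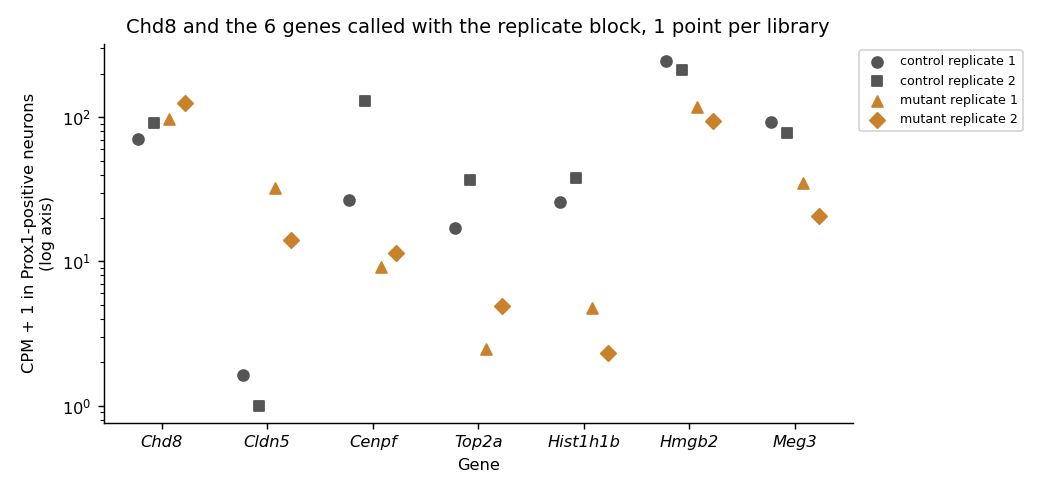
Levels in *Prox1*-positive neurons (y axis, CPM + 1 of summed UMIs on a log axis) of *Chd8* and the 6 genes called with the replicate block (x axis), with 1 point per library. For each of the 7 genes both mutant points lie on the same side of both control points.

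Finally, it was asked whether the effect of genotype differed between *Prox1*-positive and *Prox1*-negative neurons. In a fit with an interaction of class and genotype, 10 of 9475 genes (0.106%) passed, none did with DESeq2, and 1, *Rgs5*, remained after doublets had been removed. Several of the calls rested on few cells. *Rgs5*, a pericyte gene, had 127 of its 128 UMIs among the *Prox1*-positive neurons of control replicate 2 in 1 cell, and 97 of 98 among the 19 *Prox1*-negative neurons of mutant replicate 2 in another. *Synpr*, which differed between the classes in each library, was at 358, 78.5, 311 and 95.4 CPM in *Prox1*-positive neurons and at 16.7, 12.5, 64.4 and 47.0 CPM in *Prox1*-negative neurons, where the mutant values were higher.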

How the data were processed

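Forebrain cells positive for tdTomato were sorted from control and mutant mice (2 libraries each, every library from pooled mice). The authors deposited filtered matrices of raw UMI counts per gene and cell, made with Cell Ranger against mm10. The processing notes name version 3.0, whereas the matrix headers name 7.0.0 (replicate 1) and 5.0.1 (replicate 2), and versions may differ in whether intronic reads are counted. No column of cell types was used. Cells were filtered and assigned to classes by the UMI limits given with the results. Further limits were at least 2 *Eomes* UMIs for precursors, at least 3 *Dlx* UMIs for *Dlx*-positive cells and at least 5 microglial UMIs for microglia. Scrublet (scanpy 1.11.5, expected rate 0.05) marked doublets, which were kept in the reported values and removed in an alternative. It marked 3 of the 418 cells, and 0.202% of the cells of control replicate 2, where it cannot be relied on.

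UMIs were summed per class and library (8 sums per class comparison) and tested with edgeR 4.0.16 (TMM, filterByExpr, glmQLFit and glmQLFTest, Benjamini-Hochberg adjustment over all genes tested, library as block for classes). Errors of log2 changes are standard errors. DESeq2 1.42.0 was an alternative, and others were low-count filters, scaling, thinning to 5000 UMIs, stricter limits on *Prox1* or mitochondrial UMIs, and leaving out each library. Named genes were those of the rule, *Chd8*, *Xist*, *Nlgn1* and *Rbfox1*, genes of 20 lists, and up to 15 per direction and class comparison with the largest change among those called, changed alike in all 4 libraries and at 50 CPM or more in the higher class (Gm and Rik genes left out), with up to 10 per genotype comparison. The cells and lists were chosen with earlier results of these data known. The correlation across 9493 genes of replicate 2 minus replicate 1 between genotypes was 0.813, with only 2 pairs, and the replicate number coincides with the software version. Since nothing ties libraries to single mice, p-values measure the spread between libraries. Positions are from GENCODE and promoters from RefSeq, both GRCm38. Some named genes are not reported here.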

Additional observations from a re-analysis of the deposited data

Results flagged for a closer look

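For 10 genes the mutant minus control difference was unlike in *Prox1*-positive and *Prox1*-negative neurons (edgeR interaction term, adjusted p under 0.05). Values are given for 9 of them and are log2 differences, positive where the change was more upward in *Prox1*-positive neurons.

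*Rgs5* (-13.38, adjusted p = 4.70e-14), *Vtn* (-9.07, adjusted p = 0.0132) and *Col4a1* (-5.29, adjusted p = 0.00141) are genes of vessel-associated cells. In *Prox1*-positive neurons of control replicate 2, 1 cell held 127 of 128, 40 of 41 and 47 of 51 of their UMIs, and in *Prox1*-negative neurons of mutant replicate 2, 1 cell held 97 of 98, 26 of 29 and 46 of 48. *Mfge8* (-5.16, adjusted p = 0.00141) was at 13.4, 45.4, 1.49 and 28.7 CPM in *Prox1*-positive and 1.76, 12.5, 29.3 and 123 CPM in *Prox1*-negative neurons (control libraries first). Cells marked as doublets held all 15 of its UMIs in the *Prox1*-negative neurons of mutant replicate 1 and 14 of 21 in the *Prox1*-positive neurons of control replicate 1. They held none of the 21 UMIs in the *Prox1*-negative neurons of mutant replicate 2, of which 14 lay in 1 cell.

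*Dpp10* (3.41, adjusted p = 0.0043), *Frmpd4* (2.48, adjusted p = 0.0073), *S100a10* (2.30, adjusted p = 0.038) and *Gpc5* (2.13, adjusted p = 0.0258) were highest in the *Prox1*-negative neurons of control replicate 1, *Gpc5* with 786 UMIs in 35 cells. In replicate 2, *Dpp10* was at 0 CPM in both classes, and *Frmpd4* and *Gpc5* were at 5.88 CPM or less. Without control replicate 1 the difference was -1.48 for *Dpp10*, -2.56 for *Frmpd4* and -4.82 for *Gpc5*. *Synpr* (-2.29, adjusted p = 0.0273) was higher in mutant than control *Prox1*-negative neurons. With the cells marked as doublets removed, *Rgs5* alone passed (-13.37). The differences of *Vtn* (-9.06), *Col4a1* (-5.23), *Frmpd4* (2.43), *S100a10* (2.27), *Synpr* (-2.35) and *Gpc5* (2.04) were then about as large, with adjusted p between 0.0583 and 0.159. Those of *Mfge8* (-3.44) and *Dpp10* (1.31) were smaller (adjusted p = 1 for both), and 23 of the 30 *Dpp10* UMIs in *Prox1*-positive neurons of mutant replicate 1 lay in a marked doublet.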

How the results depend on the processing

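The mutant minus control difference in the share of kept cells was 0.17 points with a mitochondrial limit of 5% and between -0.34 and -0.17 with 1 library left out. That in the share of excitatory neurons was -0.71 with at least 2 *Prox1* UMIs, -10.2 within replicate 2 and between -14.9 and 16.6 with 1 library left out.

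Against *Prox1*-negative neurons 1133 genes were called. There were 625 with DESeq2, 252 with at least 10 counts in every sum (fewer genes tested), 715 after thinning, 194 without the library block and 520 to 1229 with 1 library left out (520 without control replicate 1, 675 without mutant replicate 1). Against precursors 4116 were called, with 2466 by DESeq2, 2248 after thinning, 1180 without the block and 2793 to 3905 with 1 library left out. For 28 and 30 named genes in these comparisons, 391 and 388 values were recomputed. Of these, 386 and 386 kept their direction and their side of the threshold, and none changed direction. The genes had been chosen for large called changes alike in all 4 libraries, so that few could be expected to reverse.

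Between genotypes 0 genes were called, 10 with no filter on low counts and 6 with the replicate block. With the block, 20 were called without the cells that held a *Mki67* or *Top2a* UMI, and 6 without those that held 2 or more endothelial UMIs. The log2 difference by genotype changed direction for *Nlgn1* (-3.10 to 3.09 with 1 library left out) and *Rbfox1* (-3.08 to 3.89). For the interaction 10 genes were called, 0 with DESeq2 (38 at an unadjusted p under 0.05), 0 with at least 10 counts in every sum, 1 with doublets removed, 16 with the mitochondrial limit, 18 with the replicate block and 4 to 36 with 1 library left out (4 without mutant replicate 2, 21 without control replicate 1, 36 without control replicate 2). With 1 library left out, the interaction ranged from -1.48 to 4.82 for *Dpp10*, -2.56 to 5.16 for *Frmpd4* and -4.82 to 2.88 for *Gpc5*, and was negative without control replicate 1. Where not stated, the cause was not tested. The replicate 2 libraries held only 8 and 19 *Prox1*-negative cells.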
